A study of Mus musculus with 15 samples.

Results

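The genes examined here are 10 genes that mark oligodendrocyte precursors and their differentiation, Pdgfra, Cspg4, Olig1, Olig2, Sox10, Nkx2-2, Myrf, Gpr17, Bmp4 and Enpp6. They were chosen by name, and all 10 were found among the 21878 genes of the deposited tables. RNA-seq was carried out on prefrontal forebrain cortex of wild-type C57BL6/J mice (WT) and conditional Presenilin 1/2 double knockout mice (PS1/PS2 DKO, written DKO here). The mice were 8 months old when exposure began and drank plain water or water with nicotine at 100 µg/ml for 3 months, with behavior tests before the tissue was taken. Each water group had 4 libraries, and the nicotine groups had 4 (WT) and 3 (DKO). The labels do not say whether the libraries of a group are different animals, and the p-values below then cover only the spread among libraries, which may be technical. Neither the promoter behind the conditional deletion nor the sex of the mice was available from the sources used here.

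Oligodendrocytes make the myelin sheaths of the central nervous system. They arise from precursors that keep dividing in the adult cortex, carry the PDGF receptor alpha and the proteoglycan NG2, and pass through a short-lived committed stage before they begin to make myelin. The transcription factors Olig1, Olig2 and Sox10 stay on through the whole lineage, whereas Myrf is switched on at differentiation and drives the myelin genes.

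The tissue was sequenced in bulk, so fewer cells of a type and less RNA per cell cannot be told apart. The lineage was present in every library: of 28 genes of mature oligodendrocytes and 15 other precursor genes listed as markers, none was at 0 in any library. Total reads in genes lay between 16334904 and 19469215. Psen2, a targeted gene that encodes a catalytic subunit of gamma-secretase, lay at 6.43 ± 0.77 FPKM in WT water (SD, n = 4) and 1.51 ± 0.179 in DKO water (SD, n = 4), and every DKO library was below every WT library. The groups also differed in Y-linked genes. The summed FPKM of Ddx3y, Eif2s3y, Kdm5d and Uty was 28.9 to 33.0 in WT water and 24.3 to 33.0 in DKO water, 0.0909 to 0.144 in all WT nicotine libraries, and 35.9, 0.233 and 36.6 in the DKO nicotine libraries. Nicotine and Y-linked expression therefore cannot be told apart in WT.

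In the GRCm38.p6 genome Olig1 and Olig2 are neighbours, and the other genes lie apart. Olig2 (chromosome 16, 91225550 to 91228677) ends 41091 bp before Olig1 (chromosome 16, 91269769 to 91271939). Pdgfra lies on chromosome 5 (75151322 to 75198206), Cspg4 on chromosome 9 (56865104 to 56899870), Sox10 on chromosome 15 (79154913 to 79164490) and Nkx2-2 on chromosome 2 (147176485 to 147195434). Myrf lies on chromosome 19 (10208271 to 10240777), Bmp4 on chromosome 14 (46383525 to 46390669) and Enpp6 on chromosome 8 (46939197 to 47096762). Gpr17 lies inside the span of Lims2 on the opposite strand, and 188 of its 5195 annotated exonic bases are shared with exons of Lims2. The sources used here do not say whether reads were counted by strand, and reads in that stretch cannot be assigned with certainty. The same holds for 278 of 2875 exonic bases of Nkx2-2 shared with its antisense gene Nkx2-2os, and for 89 of 2248 exonic bases of Bmp4.

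RefSeq promoter windows of 300 bases, 250 before to 50 after a gene's start, were found for 6 of the 10 genes. Those of Olig2 (chr16:91225300-91225599, plus strand) and Bmp4 (chr14:46390620-46390919, minus strand) are shown because both genes were higher in DKO than in WT mice that drank water. Those of Pdgfra (chr5:75152001-75152300, plus strand) and Cspg4 (chr9:56864854-56865153, plus strand) are shown because these precursor genes did not pass the test there. The Pdgfra window lies inside the annotated gene, whose span begins further upstream. All are printed 5′ to 3′ from GRCm38.p6, with capitals for matches to CANNTG, the E-box bound by basic helix-loop-helix factors such as Olig1 and Olig2.
Olig2: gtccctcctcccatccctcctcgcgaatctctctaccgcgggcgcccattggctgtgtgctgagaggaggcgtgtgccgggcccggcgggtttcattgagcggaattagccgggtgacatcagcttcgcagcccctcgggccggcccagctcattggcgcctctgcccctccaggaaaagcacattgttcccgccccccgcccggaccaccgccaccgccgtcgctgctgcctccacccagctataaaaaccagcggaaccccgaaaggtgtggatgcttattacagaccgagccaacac
Bmp4: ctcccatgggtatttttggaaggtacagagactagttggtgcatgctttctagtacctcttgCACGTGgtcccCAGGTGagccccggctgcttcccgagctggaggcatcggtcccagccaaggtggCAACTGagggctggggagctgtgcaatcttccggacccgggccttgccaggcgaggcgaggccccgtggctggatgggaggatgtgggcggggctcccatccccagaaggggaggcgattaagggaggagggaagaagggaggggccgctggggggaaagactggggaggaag
Pdgfra: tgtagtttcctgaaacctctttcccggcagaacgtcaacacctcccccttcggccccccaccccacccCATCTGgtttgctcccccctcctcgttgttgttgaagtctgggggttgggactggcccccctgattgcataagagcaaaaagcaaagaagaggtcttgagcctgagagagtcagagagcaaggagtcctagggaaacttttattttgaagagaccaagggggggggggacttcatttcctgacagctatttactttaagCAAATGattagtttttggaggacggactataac
Cspg4: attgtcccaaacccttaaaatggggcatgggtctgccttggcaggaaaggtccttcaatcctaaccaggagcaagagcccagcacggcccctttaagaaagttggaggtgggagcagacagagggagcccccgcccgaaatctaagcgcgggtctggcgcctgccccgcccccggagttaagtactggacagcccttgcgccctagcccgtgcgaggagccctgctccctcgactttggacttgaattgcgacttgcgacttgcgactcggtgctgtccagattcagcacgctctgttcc
The Bmp4 window held 3 matches to CANNTG on either strand, the Pdgfra window 2, and the Olig2 and Cspg4 windows 0, where 72.3% of 32851 promoter windows of this length held at least 1. None of these 4 windows held CAGCTG, which is a case of CANNTG and was found in 16.3% of windows. AACAAT, a core of SOX factor sites, occurred in the Olig2 window alone among the 4 and in 10.7% of all windows. GGCGCC, a GC-rich motif bound by SMAD factors of the BMP pathway, occurred at 2 places in the Olig2 window and 1 in the Cspg4 window, and in 11.9% of all windows. Bmp4, which rose, and Pdgfra, which did not pass, both held E-box matches, and neither Olig2, which rose, nor Cspg4 did. These are matches of letters in a window and not sites.

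Across the 15 libraries the genes spanned a wide range of levels. FPKM is scaled to gene length and library depth, so levels of different genes can be compared, but only roughly. Olig1 was the highest, with a mean of 40.9 FPKM, followed by Sox10 at 16.1, Myrf at 11.0 and Olig2 at 10.3. Gpr17 averaged 7.54 and Pdgfra 7.13 FPKM. The ranges of Sox10, Myrf and Olig2 overlapped over the 15 libraries, as did those of Gpr17 and Pdgfra, whereas the lowest Olig1 library, at 32.5 FPKM, was above the highest Sox10 library, at 20.4. Cspg4, Bmp4, Enpp6 and Nkx2-2 were low, at 2.81, 2.01, 1.23 and 1.18 FPKM, and the lowest counts behind them were 353, 49, 97 and 57 reads. The spread within groups, as the mean coefficient of variation, was smallest for Pdgfra at 6.1% and Myrf at 6.57% and largest for Gpr17 at 18.4% and Enpp6 at 19.9%.

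**Figure D1:**
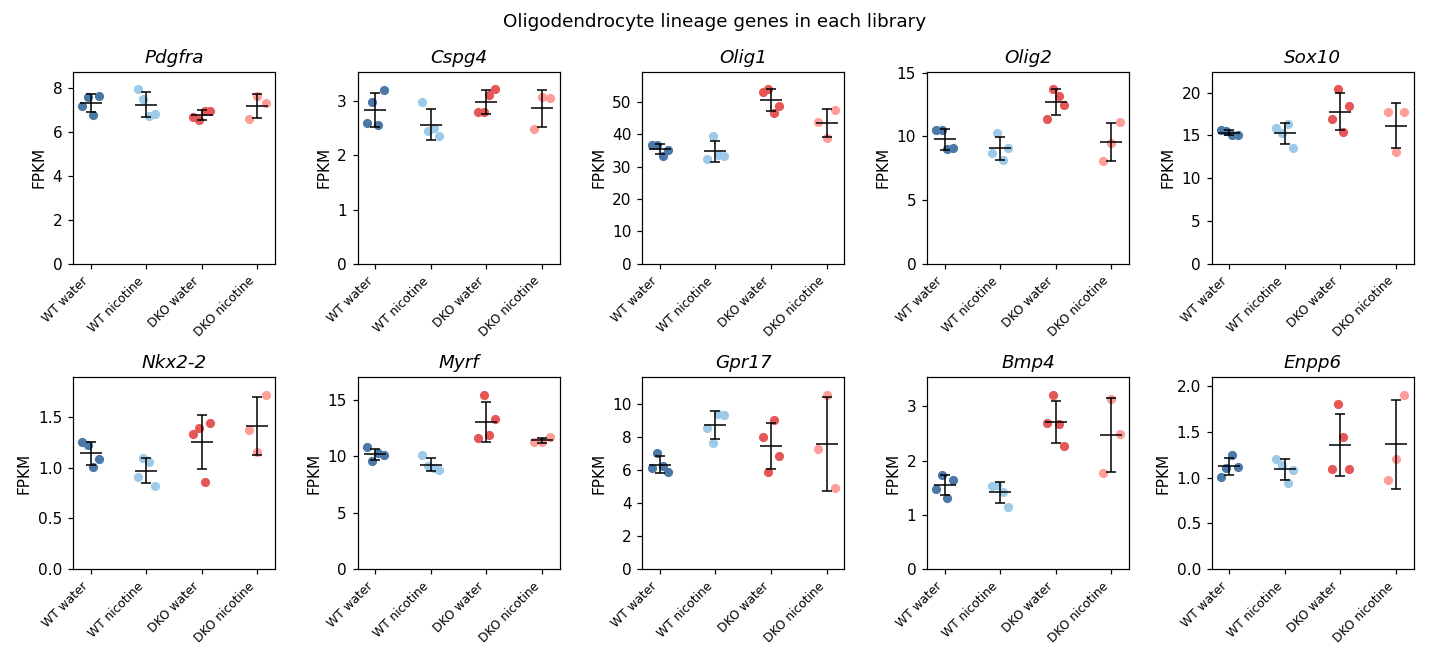
FPKM of the 10 lineage genes (vertical axes, each from 0) in the 15 libraries by group (horizontal axes), with 1 point per library, a bar for the mean and whiskers for the SD. Olig1, Olig2, Bmp4 and Myrf lie higher in all DKO water libraries than in all WT water libraries, and Gpr17 lies higher in all WT nicotine than in all WT water libraries.

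DKO water against WT water shows the difference between the genotypes in the absence of the drug. Of the 10 genes, 4 rose, none fell and 6 did not pass the test. Those that rose were Olig1 and Olig2, transcription factors that specify the lineage, Myrf, which drives myelin genes, and Bmp4, a secreted ligand that restrains differentiation. The test was limma on 12728 genes, and a gene passed when its p after Benjamini-Hochberg adjustment was under 0.05. The surface markers of precursors, Pdgfra and Cspg4, did not pass. Of all genes tested 38.0% passed and 25.5% rose, so 4 of 10 is near the share of all genes that passed. The median log2 difference of the 10 genes was 0.2, against 0.048 over all genes tested.

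Olig1 lay at 36.6, 36.6, 33.3 and 35.0 FPKM in WT water and at 53.0, 53.9, 46.7 and 48.6 in DKO water. Every DKO water library was above every WT water library. The means were 35.4 ± 1.6 and 50.5 ± 3.45 FPKM (SD, n = 4 each), a ratio of 1.43 and a log2 difference of FPKM + 1 of 0.5 (SE 0.066, limma adjusted p = 1.69e-05).

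Olig2, the paralog next to it, lay at 10.5, 10.5, 9.02 and 9.06 FPKM in WT water and at 11.4, 13.7, 13.2 and 12.5 in DKO water. The groups did not overlap, and the ratio of the means was 1.3 (log2 difference 0.35, SE 0.085, limma adjusted p = 0.00413). Libraries without overlap and higher in DKO were seen for 24.0% of all genes tested.

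Bmp4 lay at 1.48, 1.74, 1.32 and 1.65 FPKM in WT water, on 59 to 72 reads, and at 2.69, 3.22, 2.68 and 2.27 in DKO water, on 85 to 135 reads. All DKO water libraries were higher, with a ratio of 1.75, the largest among the 10 genes (log2 difference 0.54, SE 0.11, limma adjusted p = 0.000828). Because 1 was added to each FPKM value before the log, the log2 difference understates the change of a gene this low.

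Myrf lay at 10.8, 9.64, 10.3 and 10.1 FPKM in WT water and at 11.6, 15.5, 11.9 and 13.3 in DKO water. The groups did not overlap, although the DKO water libraries spread further, with an SD of 1.81 against 0.465 FPKM. The ratio was 1.28 (log2 difference 0.32, SE 0.07, limma adjusted p = 0.00163).

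Sox10, the partner of the Olig factors and of Myrf, lay at 15.6, 15.5, 15.1 and 15 FPKM in WT water and at 16.9, 20.4, 15.4 and 18.4 in DKO water. A single DKO library, replicate 3, lay within the WT range, and the log2 difference of 0.2 did not pass (95% interval 0.0095 to 0.39, limma adjusted p = 0.0912). Without that library the difference was 0.26 (limma adjusted p = 0.0328), and with only the groups compared in the fit the adjusted p was 0.0368. Nkx2-2, a homeodomain factor of differentiating precursors, lay at 1.25, 1.22, 1.01 and 1.08 FPKM in WT water and at 1.33, 1.39, 0.857 and 1.44 in DKO water, with overlap through DKO replicate 3.

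Pdgfra, the receptor that takes the mitogen PDGF-AA, lay at 7.19, 7.62, 6.78 and 7.65 FPKM in WT water and at 6.67, 6.53, 6.98 and 6.97 in DKO water, a log2 difference of -0.093 (95% interval -0.21 to 0.03, limma adjusted p = 0.225). Cspg4, which encodes NG2, lay at 2.59, 2.98, 2.56 and 3.2 FPKM in WT water and at 2.8, 2.81, 3.12 and 3.22 in DKO water, a log2 difference of 0.059 (95% interval -0.1 to 0.22). Pdgfra was at -0.15 after rescaling (limma adjusted p = 0.0593). Both 95% intervals leave out a rise as large as that of Olig1. The genes are also expressed outside the lineage, Pdgfra in fibroblasts and Cspg4 in pericytes. Of 7 fibroblast markers 5 rose, with a summed level of 33.2 to 39.2 FPKM in WT water and 46.1 to 62.0 in DKO water. Col3a1 of this list reached 1 FPKM in DKO libraries alone and was tested only through them. Of all genes tested 25.5% rose. Of 8 pericyte markers 3 rose, with sums of 70.4 to 77.2 and 90.0 to 108.0 FPKM. No marker of either list was at 0 in any library, and their part in the levels of Pdgfra and Cspg4 was not tested.

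The genes of the committed and newly formed stages varied between libraries. Gpr17, a receptor of committed precursors, lay at 6.14, 7.05, 6.28 and 5.9 FPKM in WT water and at 8.05, 5.9, 9.06 and 6.86 in DKO water. The groups overlapped and the log2 difference was 0.19 (95% interval -0.13 to 0.51). Enpp6, a phosphodiesterase of newly formed oligodendrocytes, lay at 1.01, 1.11, 1.25 and 1.12 FPKM in WT water and at 1.09, 1.81, 1.44 and 1.1 in DKO water, also with overlap (log2 difference 0.14, 95% interval -0.093 to 0.38).

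**Figure D2:**
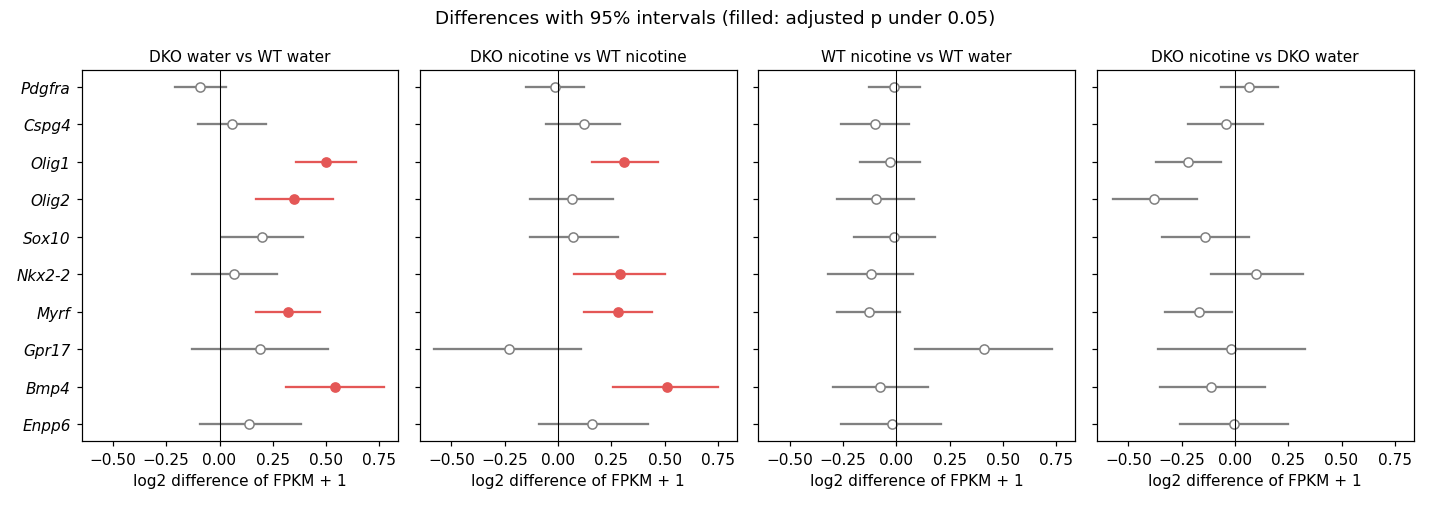
Log2 difference of FPKM + 1 (horizontal axes) for each of the 10 genes (vertical axis) in 4 comparisons of groups, with lines for 95% intervals and filled points for an adjusted p under 0.05. The filled points are confined to the 2 comparisons of genotypes, at 0.28 to 0.54, and no gene has one in the nicotine comparisons.

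Other genes of the lineage were grouped by stage, in lists written with earlier results of these data known. Of all genes tested 25.5% rose and 12.4% fell in DKO water. Of 28 mature oligodendrocyte and myelin genes, 17 rose and none fell in DKO water, with a median log2 difference of 0.28, and their summed level was 1380.0 to 1540.0 FPKM in WT water and 1650.0 to 1990.0 in DKO water. Trf, the iron carrier transferrin, rose by 0.68 on the log2 scale, Gsn, the actin-severing protein gelsolin, by 0.53, and Klk6, a secreted protease of oligodendrocytes, by 0.79. Trf alone went from 126.0 to 203.0 FPKM on average within these sums. The other 11 genes did not pass. The myelin genes Mbp, at 314.0 ± 18.9 and 330.0 ± 34.3 FPKM, and Mobp, at 55.0 ± 3.69 and 55.7 ± 5.26, overlapped between WT water and DKO water (SD, n = 4 each). Ninj2 of this list reached 1 FPKM in DKO libraries alone. Of 11 tested genes of committed and newly formed oligodendrocytes (14 on the list), 6 rose and none fell, with a median of 0.21. Sirt2, a deacetylase of myelinating cells, Tns3, a focal adhesion protein, and Itpr2, a calcium channel, rose by 0.37, 0.5 and 0.28. Of 15 other precursor genes 2 rose and none fell, with a median of 0.056 against 0.048 over all genes. Pcdh15, an adhesion gene, was among them and went from 1.07 ± 0.155 to 1.7 ± 0.309 FPKM (SD, n = 4 each). After rescaling 14 of the mature and 5 of the committed genes rose and none fell, and of the other precursor genes 2 rose and 1 fell. The difference between these lists was not tested, and neither was the part of other cells in the levels of the listed genes.

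**Figure D3:**
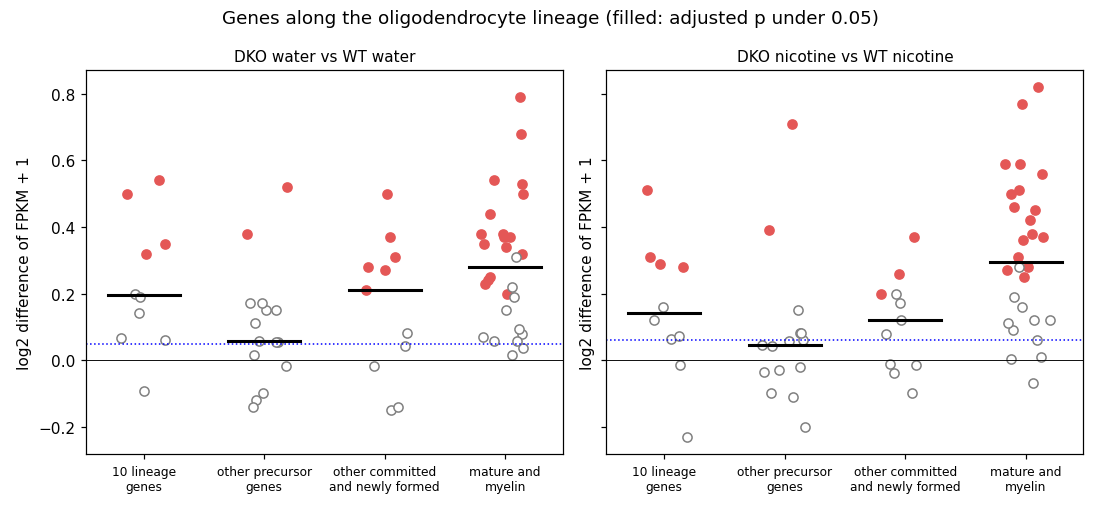
Log2 difference of FPKM + 1 between genotypes (vertical axes) for the 10 lineage genes and 3 lists of other genes of the lineage, in water (left) and under nicotine (right), with 1 point per gene, filled where the adjusted p was under 0.05, a bar at the list's median and a dotted line at the median of all genes tested. The bar of the other precursor genes lies near the dotted line in both panels (0.056 and 0.045), and that of the mature genes lies above it (0.28 and 0.3).

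Among the extracellular cues, ligands and receptors of the lineage, 10 of 19 tested genes rose in DKO water and Lingo1 and Nrg1 fell. Of all genes 25.5% rose and 12.4% fell. Fgf2 and Cntf of this list reached 1 FPKM in DKO libraries alone. Igf1, a growth factor that microglia also secrete, rose from 1.14 ± 0.0609 to 2.44 ± 0.246 FPKM, Fgfr1 from 9.94 ± 0.393 to 13.9 ± 0.456 and Gpr37l1, a receptor of astrocytes and precursors, from 69.0 ± 2.97 to 106.0 ± 4.1 (SD, n = 4 each). Around Bmp4, 8 of 25 tested BMP pathway genes rose and 3 fell, with a median log2 difference of 0.039 against 0.048 over all genes. The BMP counts are near the 25.5% of all genes that rose and the 12.4% that fell, and are no result about the pathway. The tested genes include Bmp5, which reached 1 FPKM in DKO libraries alone, and Bmp2, which did so in WT libraries alone. The receptor Bmpr1b rose from 3.29 ± 0.181 to 4.76 ± 0.54 FPKM and Id3, an inhibitor of helix-loop-helix factors and a BMP target, from 22.3 ± 3.73 to 33.6 ± 4.78. The secreted antagonist Fst went from 0.991 ± 0.146 to 0.361 ± 0.182 FPKM on average, but it reached 1 FPKM in WT libraries alone and was tested only through the groups where it is high, so its values are given as a description. The BMP antagonist Nog was among the other falls. Of 22 tested transcriptional regulators, 6 rose and 2 fell, also near the shares of all genes, with a median of 0.035. Among them Sox9, a factor shared with astrocytes, and Hdac1, a deacetylase, had log2 differences of 0.32 and 0.3 and passed. Of 14 cell division genes 6 were tested. Mcm3 and Mcm2, parts of the replicative helicase, rose by 0.44 and 0.21, though Mcm3 met the filter mainly through the DKO libraries, and Ccnd2, a cyclin, fell by 0.33. Of these 6 genes, 3 rose and 1 fell, and after rescaling 1 rose and 1 fell.

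Markers of other cells moved in the same comparison. All 7 microglia markers rose, with sums of 149.0 to 169.0 FPKM in WT water and 461.0 to 521.0 in DKO water, and all 6 astrocyte markers rose, with sums of 438.0 to 502.0 and 869.0 to 961.0. Of 6 endothelial markers 4 rose and none fell, with sums of 79.6 to 84.6 and 101.0 to 125.0 FPKM. Of 7 neuron markers 4 fell and 2 rose, with sums of 2520.0 to 2650.0 and 2180.0 to 2320.0 FPKM. No marker of these lists was at 0 in any library, and the part of these cells in the differences of the lineage genes was not tested. Rescaling by median-of-ratios factors turned the balance of all calls from 25.5% higher and 12.4% lower to 18.2% higher and 19.8% lower. Olig1, Olig2, Bmp4 and Myrf were higher under both scalings, with 0.44, 0.29, 0.5 and 0.26 on the log2 scale after rescaling (limma adjusted p = 2.96e-05, 0.014, 0.00147 and 0.00613).

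The comparison of the genotypes under nicotine asks whether the same genes differ when both groups take the drug. Again 4 of the 10 genes rose and none fell, where 35.7% of all genes passed and 24.6% rose. Olig1, Bmp4 and Myrf rose as in water, Nkx2-2 rose, and Olig2 did not pass. This comparison has no sample in common with that in water, but both share 1 fit and its estimate of each gene's spread. Bmp4 lay at 1.54, 1.56, 1.43 and 1.14 FPKM in WT nicotine and at 1.78, 3.14 and 2.5 in DKO nicotine, without overlap and with a ratio of 1.75 (log2 difference 0.51, SE 0.12, limma adjusted p = 0.00275). Myrf lay at 10.1, 9.14, 8.95 and 8.81 against 11.3, 11.3 and 11.7 FPKM, also without overlap (log2 difference 0.28, SE 0.075, limma adjusted p = 0.00815).

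Olig1 lay at 32.5, 39.4, 33.5 and 33.4 FPKM in WT nicotine and at 43.8, 39.0 and 47.5 in DKO nicotine. WT replicate 2 and DKO replicate 2 overlapped by a small margin, and the ratio of 1.25 passed (log2 difference 0.31, SE 0.072, limma adjusted p = 0.00273). Nkx2-2 lay at 0.908, 1.09, 1.06 and 0.823 FPKM, on 57 to 72 reads, against 1.37, 1.15 and 1.72, on 80 to 119 reads (log2 difference 0.29, SE 0.1, limma adjusted p = 0.0349). The groups did not overlap, as for 25.8% of all genes tested in this direction. The call of Nkx2-2 was lost after rescaling (adjusted p = 0.0618), with only the groups compared in the fit (0.055), with a replicate block (0.0705), and without WT nicotine replicate 1 or 4 (0.0698 and 0.0916) or DKO nicotine replicate 1 or 3 (0.0663 and 0.187).

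Olig2 lay at 8.72, 10.3, 8.18 and 9.1 FPKM in WT nicotine and at 8.09, 9.51 and 11.1 in DKO nicotine, a log2 difference of 0.064 (95% interval -0.13 to 0.26). Its direction turned after rescaling, to -0.0083. Gpr17 lay at 8.58, 7.65, 9.43 and 9.36 FPKM against 7.28, 10.6 and 4.91, a log2 difference of -0.23 (limma adjusted p = 0.288). Without DKO nicotine replicate 2 the log2 difference of Gpr17 was -0.48 and passed (limma adjusted p = 0.0152), and without DKO nicotine replicate 3 the difference was 0.012. Sox10 lay at 15.9, 15.3, 16.3 and 13.5 against 17.7, 13.1 and 17.7 FPKM, with overlap and a log2 difference of 0.072 that was -0.0032 after rescaling.

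Pdgfra lay at 7.95, 7.52, 6.74 and 6.82 FPKM in WT nicotine and at 6.58, 7.64 and 7.31 in DKO nicotine, a log2 difference of -0.014 (95% interval -0.15 to 0.12). Cspg4 lay at 2.98, 2.45, 2.5 and 2.35 against 2.48, 3.08 and 3.06 FPKM, and Enpp6 at 1.2, 1.14, 0.941 and 1.08 against 0.979, 1.21 and 1.91. All 3 genes overlapped between the genotypes. Of the mature genes 17 of 28 rose and none fell, with Trf up by 0.82, Pllp, a myelin membrane protein, by 0.51 and Gjb1, a gap junction protein of oligodendrocytes, by 0.59 on the log2 scale. Of the 15 other precursor genes 2 rose, with Pcdh15 up by 0.71. Of all genes tested 24.6% rose and 11.0% fell. After rescaling 1 of the 15 precursor genes and 14 of the 28 mature genes rose. The share of all genes after rescaling is not given for this comparison, and the difference between the lists was not tested. Of the committed genes 3 of 11 rose, Tns3 by 0.37, Sirt2 by 0.26 and the small GTPase Rras2 by 0.2.

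Under nicotine 24.6% of all genes rose and 11.0% fell, with a median log2 difference of 0.061. Of the transcriptional regulators 6 of 22 rose, near that share, and 1 fell, with a median of 0.085. St18, a zinc finger factor, and Chd7, a chromatin remodeller, both rose by 0.29, whereas Id4, which inhibits helix-loop-helix factors, fell from 27.6 ± 1.67 (SD, n = 4) to 21.8 ± 3.64 FPKM (SD, n = 3). Of the cues and receptors 9 of 19 rose and 1 fell, with Igf1, Gpr37l1 and Fgfr1 up by 0.88, 0.45 and 0.36. Of the BMP pathway genes 6 of 25 rose, again near the share of all genes, and 4 fell, with a median of 0.11. Bmpr1b rose by 0.52 and the antagonist Nog fell by 0.46 on the log2 scale, and Fst had a log2 difference of -0.56 with the same limit as in water. Of the 6 tested cell division genes 3 rose and 1 fell, with Mcm3 up by 0.49, Ccnd1, a cyclin, up by 0.85 and Ccnd2 down (log2 difference -0.34). Y-linked genes also differed between these groups, with sums near 0 in all WT nicotine libraries and in DKO nicotine replicate 2 alone among the DKO libraries. In that DKO library Bmp4, Myrf and Nkx2-2, at 3.14, 11.3 and 1.15 FPKM, lay above all WT nicotine libraries, and Olig1, at 39.0, lay within their range. A single library allows no test, and the part of Y-linked expression in the genotype differences under nicotine was not tested.

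In WT mice the comparison of nicotine against water named none of the 10 genes, either by limma or by limma voom on the reads recovered from the FPKM values, where 0.173% of all genes passed. At an unadjusted p under 0.05 there was 1 of the 10 genes, against 8.7% of all genes. That gene was Gpr17, at 7.65 to 9.43 FPKM in WT nicotine against 5.9 to 7.05 in WT water. The groups did not overlap, as for 3.14% of all genes in this direction, and the ratio of the means was 1.38 (log2 difference 0.41, SE 0.15, unadjusted p = 0.0159, limma adjusted p = 0.472). With only the groups compared in the fit, Gpr17 passed (adjusted p = 0.0462). Over all alternatives run for this value the log2 difference lay between 0.37 and 0.46 and the adjusted p between 0.0462 and 0.683.

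The difference in Gpr17 went with Y-linked expression, which was near 0 in all 4 WT nicotine libraries, and both cannot be told apart. In the 5 libraries of the series with a Y-linked sum under 1 FPKM, Gpr17 lay at 7.65 to 10.6 FPKM, and in the other 10 at 4.91 to 9.06. Lims2, which shares exonic bases with Gpr17, lay at 3.42 ± 0.238 FPKM in WT water and 4.13 ± 0.485 in WT nicotine (SD, n = 4 each), and its part in the result was not tested. The other 9 lineage genes had a log2 difference below 0, from -0.0099 for Sox10 to -0.13 for Myrf, without a call. Bmp4 was at 1.42 ± 0.192 against 1.55 ± 0.183 FPKM and Olig1 at 34.7 ± 3.14 against 35.4 ± 1.6 (SD, n = 4 each). None of the 28 mature genes passed by limma, and 26 of them lay below 0, 6 genes of the list had an unadjusted p under 0.05, and the median was -0.11. After rescaling 1 mature gene passed, as a fall. None of the 15 other precursor genes passed, 2 had an unadjusted p under 0.05, and the median was 0.023, against 0.0014 over all genes.

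In DKO mice the comparison of nicotine against water also named none of the 10 genes by limma or by limma voom, where 0.157% of all genes passed. At an unadjusted p under 0.05 there were 3, Olig2, Olig1 and Myrf, all lower with nicotine, against 13.9% of all genes. Olig2 lay at 8.09, 9.51 and 11.1 FPKM in DKO nicotine, below all 4 DKO water libraries at 11.4 to 13.7. Libraries without overlap and lower with nicotine were seen for 3.99% of all genes. The ratio was 0.754 (log2 difference -0.38, SE 0.092, 95% interval -0.57 to -0.18, unadjusted p = 0.000765, limma adjusted p = 0.106). Without DKO nicotine replicate 3, the highest of the treated libraries, the difference was -0.48 and passed (adjusted p = 0.0305). The low value here and the high value in DKO water against WT water rest on the same 4 DKO water libraries.

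Olig1 lay at 43.4 ± 4.26 FPKM in DKO nicotine (SD, n = 3) against 50.5 ± 3.45 in DKO water (SD, n = 4), a log2 difference of -0.22 (limma adjusted p = 0.213), with overlap through DKO nicotine replicate 3. Myrf lay at 11.4 ± 0.204 against 13.1 ± 1.81 FPKM (log2 difference -0.17, limma adjusted p = 0.325). Both values lay between those of WT water and DKO water. Sox10 and Bmp4 had log2 differences of -0.14 and -0.11, Pdgfra and Nkx2-2 of 0.068 and 0.1, and Cspg4, Gpr17 and Enpp6 of -0.043, -0.017 and -0.0031, with overlapping libraries in each case. For Gpr17 the ratio of the means was 1.02, on the other side of no change from its log2 difference. Gpr17 spread from 4.91 FPKM in replicate 3 to 10.6 in replicate 2, wider than in any other group. Of the 28 mature genes none passed by limma, and 25 lay below 0, with a median of -0.099 against 0.0076 over all genes. An unadjusted p under 0.05 was found for 4 of them, against 13.9% of all genes. In this comparison DKO nicotine replicate 2 also differed in Y-linked genes. Their sum was 0.233 FPKM there, 35.9 and 36.6 in the other DKO nicotine libraries and 24.3 to 33.0 in DKO water. The part of that library in these differences was not tested.

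The interaction asks whether the nicotine difference itself differs between the genotypes. It includes the WT nicotine libraries, and the 4 Y-linked genes had a median interaction of 2.13 on the log2 scale. Nicotine and Y-linked expression therefore cannot be told apart in its WT part. None of the 10 genes passed by limma or by limma voom, where 0.0157% of all genes did by limma, and Olig2 alone had an unadjusted p under 0.05, against 6.9% of all genes. Its interaction was -0.28 on the log2 scale (95% interval -0.55 to -0.017, unadjusted p = 0.0386, limma adjusted p = 0.7). That of Gpr17 was -0.43 with an interval of -0.9 to 0.047 (limma adjusted p = 0.739). For Pdgfra and Cspg4 the intervals ran from -0.1 to 0.26 and from -0.18 to 0.3. For Bmp4 and Myrf, which were higher in DKO with and without nicotine, they ran from -0.37 to 0.3 and from -0.26 to 0.18. An interaction of any size within these intervals remains possible.

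The genes that varied most like 3 of the lineage genes were found from deviations from group means of log2(FPKM + 1) over 15 libraries, which share tissue, kit and depth. Closest to Myrf were Folh1 (Pearson r = 0.911, Spearman rho = 0.879), the RNA-binding protein gene Qk (0.881 and 0.814) and Atp13a5 (0.868 and 0.707). Closest to Gpr17 were Siglecf (0.927 and 0.704), Btbd10 (0.91 and 0.911) and P4ha1, a collagen prolyl hydroxylase subunit (0.89 and 0.914). Closest to Pdgfra were I830077J02Rik (0.878 and 0.886), the basement membrane collagen gene Col4a1 (0.851 and 0.839) and Ltbp1 (0.84 and 0.821). Siglecf lay at 0.0828 to 0.279 FPKM in the WT libraries, on 4 to 14 reads. Both Siglecf and I830077J02Rik reached 1 FPKM in DKO libraries alone. All these genes were picked as the closest among all genes tested, so the values are a description, with no test.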

How the data were processed

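The deposited tables, 1 per library, held FPKM values made by the authors for 21878 gene names, with GRCm38.p6 named as build in the submitters' processing notes. Aligner, counter and strand use: not given in the sources used here. The extract protocol in the labels names a stranded mRNA library kit. Gene names that a spreadsheet had turned into dates (27) were restored. Tests covered the 12728 genes that reached 1 FPKM in 3 or more libraries, on log2(FPKM + 1), with limma 3.58.1 in R 4.3.3, 1 fit with a mean per group over the 15 libraries, an intensity trend and Benjamini-Hochberg adjustment over all genes tested. Whole reads could be recovered from the FPKM steps for 100.0% of these genes, within 0.02 reads, and gave the read counts and a limma voom alternative. Of the listed genes Ninj2, Fgf2, Cntf, Bmp5 and Col3a1 reached 1 FPKM in DKO libraries alone, and Bmp2 and Fst in WT libraries alone. Each was tested only through the groups where it is high, so counts that include them are in that part a description. The fit was also run on simulated reads, with the same spread set for all genes, unlike the data. The outcome is not reported here. Named were the 10 lineage genes in each comparison, and from each list up to 3 genes that passed with the smallest p, apart from 1 gene that is not reported here. Lingo1, Nrg1, Mbp, Mobp and, in water, Nog were named after their values were seen, as were the genes given only for the limit of the filter. Lims2 was named for its overlap with Gpr17, and Psen2 was a check of the labels. For Pdgfra, Gpr17 and Myrf the 3 genes with the highest correlation were named. Members, lists and tests were chosen with earlier results of these data known. Alternatives were median-of-ratios rescaling, a filter at 5 FPKM or none, a pseudocount of 0.1, a fit without the intensity trend, a fit of the compared groups alone, a replicate block, limma voom, and each library left out in turn. Positions are from RefSeq, exon overlaps from GENCODE M21, and promoters from RefSeq, all on GRCm38.p6. Python 3.11.15, pandas 2.3.3 and matplotlib 3.10.9 were used.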

Additional observations from a re-analysis of the deposited data

Results flagged for a closer look

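Olig1 in WT nicotine was the single value, of 30 gene and group combinations with 4 libraries, in which a library stood apart from its group: replicate 2 lay at 39.4 FPKM and the nearest other library at 33.5, a gap of 0.855 of the group's whole range. It is also the library through which Olig1 overlapped between the genotypes under nicotine. With this many combinations checked, a single such value can arise by chance.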

How the results depend on the processing

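In DKO water against WT water Olig1, Olig2, Bmp4 and Myrf passed under each alternative that kept all libraries, except that a filter at 5 FPKM left Bmp4 untested, and Sox10 was added with only the groups compared. Over the alternatives that tested them the log2 difference was 0.44 to 0.51 for Olig1, 0.29 to 0.38 for Olig2, 0.5 to 0.81 for Bmp4 and 0.26 to 0.35 for Myrf. Between genotypes under nicotine 4 genes passed, but 2 of the 6 tested with the filter at 5 FPKM, which left Bmp4 and Nkx2-2 untested, and 3 after rescaling, with only the groups compared and with a replicate block, each without Nkx2-2. In WT nicotine against water none passed, but 1 did with only the groups compared. Leaving out each library in turn gave 4 to 5, 3 to 5, 0 and 0 to 1 genes in the 4 comparisons and 0 for the interaction. The 5 between genotypes under nicotine, without DKO nicotine replicate 2, include Gpr17 as a fall. In the main fit 38.0%, 35.7%, 0.173% and 0.157% of all genes passed in the 4 comparisons, and 0.0157% for the interaction. The shares of all genes under the alternatives are not given here, so these counts cannot be set against them.

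After rescaling the log2 difference between genotypes under nicotine turned to -0.0083 for Olig2 and -0.0032 for Sox10. Leaving out single libraries turned the sign of small differences that had not passed. In DKO nicotine against DKO water these were Bmp4 (-0.24 to 0.043), Cspg4 (-0.082 to 0.032), Enpp6 (-0.16 to 0.12), Gpr17 (-0.26 to 0.23) and Sox10 (-0.21 to 0.00061). Between genotypes under nicotine they were Gpr17 (-0.48 to 0.012), Olig2 (-0.039 to 0.17) and Pdgfra (-0.055 to 0.04), and in WT nicotine against water Enpp6 (-0.049 to 0.012), Pdgfra (-0.05 to 0.02) and Sox10 (-0.042 to 0.044). For the interaction they were Bmp4 (-0.17 to 0.12), Enpp6 (-0.14 to 0.14), Myrf (-0.092 to 0.039) and Sox10 (-0.2 to 0.01). The cause was not tested.

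With a replicate block 4, 3, 0, 0 and 0 genes passed, the loss being Nkx2-2. Of 21 same-numbered pairs of libraries 2 correlated above 0.1 in their deviations from group means (r from -0.214 to 0.165), and 2 of 15 libraries were closest to their own number. These values showed no sign of pairing by number. With 3 or 4 libraries per group they cannot exclude it. Depth limits Bmp4, Nkx2-2 and Enpp6 most, with 49, 57 and 97 reads in their lowest libraries.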
